A study of Mus musculus with 10 samples.

Results

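The collagen and meningeal fibroblast genes examined here are 9 genes, Col1a1, Col1a2, Col3a1, Dcn, Lum, Igf2, Slc6a13, Slc22a6 and Ptgds, out of the 19938 genes that had a probe set of their own. A gene was a member if a probe set was annotated to its symbol alone, and a gene with several such probe sets would have been read from its brightest. All 9 genes were found and each had 1 such probe set, so no choice between probe sets arose. The arrays measured total RNA from whole brains of 10 adult male mice on a C57Bl/6J background, 1 array per mouse. The 5 transgenic (Tg) mice carried a bacterial artificial chromosome (BAC), a large genomic insert that overexpresses the glyoxalase gene Glo1, and the 5 wild-type (WT) mice were their littermates. Mice of both groups were group housed, naive and untreated. The labels call the arrays of a group biological replicates. The labels do not state the clone of the BAC, the line or lines it founded or the cells in which it is active.

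The meninges are the connective tissue membranes that wrap the brain. Their fibroblasts make the fibrillar collagens of types I and III, together with small leucine-rich proteoglycans that bind collagen fibrils and regulate how they assemble. Fibroblasts of the arachnoid and pia also carry solute transporters at the border to the cerebrospinal fluid, secrete insulin-like growth factor 2 and make prostaglandin D2 synthase. A whole brain keeps a variable amount of these membranes after dissection, and the question put to the 9 genes was whether they rise and fall together from brain to brain and whether they differ between Tg and WT. In bulk tissue fewer cells of a type and less RNA per cell cannot be told apart.

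Glo1 matched the group labels on every array: its 2 probe sets read 11.79 to 12.10 and 11.88 to 12.23 in Tg brains, against 10.24 to 10.63 and 10.27 to 10.75 in WT brains, in log2 units. WT replicate 2 stood apart from the other arrays before any group was compared. Its mean correlation with the other arrays was 0.992, against 0.994 to 0.997 for the others. The mean of 17 cerebellar marker genes was 8.58 on that array and 10.30 to 10.55 on the other 9, and Alas2, the heme synthesis enzyme of red cell precursors, was at 9.66 there and at 7.93 to 8.25 elsewhere. WT replicate 2 and Tg replicate 2 also carried the pituitary hormone transcripts Gh (13.46 and 13.14, others 7.47 to 8.25) and Prl (12.48 and 12.09, others 5.87 to 6.62). The Tg and WT differences of the 9 genes are therefore given with and without WT replicate 2, and so are the counts and correlations on which the results turn.

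The 9 genes did not rise and fall as one set across these brains. Col1a1 and Col1a2, the chains of type I collagen, covaried with and without WT replicate 2. They missed the threshold once each array was centred on its median (adjusted permutation p = 0.0572). Col1a1 with Col3a1 passed over 10 arrays. This pair missed the threshold without WT replicate 2, and also when Tg replicate 4 or WT replicate 1, 3 or 5 was left out. Dcn was lowest on the array where the 3 collagens were highest, and Slc22a6 and Ptgds had r = -0.81, which missed the threshold after adjustment. Igf2 was high only on the 2 arrays that carried Gh and Prl. None of the 9 differed between Tg and WT past the threshold of an adjusted p of 0.05 in limma, where 10 of 28944 probe sets passed (0.0345%) and 640 had an unadjusted p under 0.05. Once WT replicate 2 was left out, Col3a1 was 0.17 log2 units higher in Tg, with all 5 Tg arrays above the 4 remaining WT arrays. Such a separation occurred for 1.86% of all probe sets there, and again no member passed after adjustment.

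Promoter sequences are shown for the collagen genes that had a window, Col1a2 and Col3a1, and for Slc22a6 and Ptgds, the pair with the most negative r, so that the members of each pair can be compared. Each is the 250 bases before the annotated transcription start, from RefSeq (build GRCm38.p6), written 5′ to 3′ on the strand of the gene. The windows are chr6:4505368-4505617 (plus strand) for Col1a2, chr1:45311288-45311537 (plus strand) for Col3a1, chr19:8617746-8617995 (plus strand) for Slc22a6 and chr2:25469750-25469999 (minus strand) for Ptgds. Capitals mark matches on either strand to 3 short promoter motifs. They are the box spelled CCAAT, the box of the core promoter spelled TATAAA, which the TATA-binding protein recognises, and the box rich in G and C that is spelled GGGCGG and is bound by Sp1. The array was matched to these genes by symbol, and the labels name no build for its design.
Col1a2: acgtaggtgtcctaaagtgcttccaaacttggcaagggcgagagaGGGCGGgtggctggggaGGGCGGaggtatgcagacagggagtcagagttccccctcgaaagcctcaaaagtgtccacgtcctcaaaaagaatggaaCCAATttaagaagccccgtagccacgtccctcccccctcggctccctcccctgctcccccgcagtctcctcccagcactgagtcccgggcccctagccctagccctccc
Col3a1: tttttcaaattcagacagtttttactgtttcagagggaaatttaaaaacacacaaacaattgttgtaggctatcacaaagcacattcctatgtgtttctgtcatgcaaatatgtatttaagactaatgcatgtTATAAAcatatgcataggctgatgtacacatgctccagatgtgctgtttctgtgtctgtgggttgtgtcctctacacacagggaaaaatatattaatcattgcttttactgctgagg
Slc22a6: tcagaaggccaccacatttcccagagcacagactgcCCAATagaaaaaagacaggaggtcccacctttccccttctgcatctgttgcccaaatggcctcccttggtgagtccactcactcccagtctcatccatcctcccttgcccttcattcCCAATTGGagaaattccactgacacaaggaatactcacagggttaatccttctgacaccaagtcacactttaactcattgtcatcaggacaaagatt
Ptgds: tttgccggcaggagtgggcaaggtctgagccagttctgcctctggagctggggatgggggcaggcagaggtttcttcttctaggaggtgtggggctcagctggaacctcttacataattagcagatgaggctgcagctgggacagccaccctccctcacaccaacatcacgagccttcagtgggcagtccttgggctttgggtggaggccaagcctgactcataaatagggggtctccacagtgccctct

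The Col1a2 window held a CCAAT from base -109 to -105 and GGGCGG at -205 to -200 and -188 to -183, counted back from the start. The Col3a1 window held none of these and had a TATAAA at -117 to -112. The windows also differed in base composition, with 62.0% G and C for Col1a2 and 35.2% for Col3a1. Of the other pair, Slc22a6 held CCAAT at -214 to -210 and at -97 to -93, the second overlapping a CCAAT on the reverse strand at -94 to -90. No match lay in the Ptgds window, which says only that these letters are not in this stretch. Over 32851 promoter windows of the same length, 33.8% held CCAAT, 12.4% TATAAA and 32.7% GGGCGG on either strand. Windows were held for 6 of the 9 genes (Col1a2, Col3a1, Igf2, Slc6a13, Slc22a6 and Ptgds).

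Col1a1 and Col1a2 encode the 2 chains of type I collagen, the main fibril of the dura and of other dense connective tissue. On the Tg arrays, in replicate order from 1 to 5, Col1a1 read 8.66, 8.79, 8.81, 8.80 and 8.74. On the WT arrays it read 8.73, 8.91, 8.58, 8.66 and 8.65. WT replicate 2 was the highest array and WT replicate 3 the lowest, so the WT range enclosed the Tg range. The Tg mean was 8.76 ± 0.062 (SD, n = 5) and the WT mean 8.70 ± 0.12 (SD, n = 5), a difference of 0.05 (95% interval -0.08 to 0.19, exact permutation p = 0.429, two-sided). With WT replicate 2 left out, the WT mean was 8.65 ± 0.061 (SD, n = 4) and the difference 0.10 (0.0043 to 0.20). The exact permutation p was then 0.0397, while the limma adjusted p over all probe sets was 0.444.

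Col1a2 read 8.40, 8.54, 8.51, 8.52 and 8.51 on the Tg arrays. It read 8.51, 8.59, 8.38, 8.48 and 8.38 on the WT arrays. The highest array was again WT replicate 2, while Tg replicate 1 lay with WT replicates 3 and 5 at the bottom, apart from the other 4 Tg arrays. The groups overlapped and differed by 0.03 (-0.08 to 0.14, exact permutation p = 0.563). Without WT replicate 2 the difference was 0.06 (-0.04 to 0.16, limma adjusted p = 0.609).

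Col3a1 encodes type III collagen, the finer fibril of loose connective tissue and vessel walls, and showed the largest Tg and WT difference of the 9 genes in absolute size, with and without WT replicate 2. Its Tg values were 7.68, 7.67, 7.70, 7.77 and 7.80. Its WT values were 7.64, 7.89, 7.50, 7.51 and 7.55. WT replicate 2 exceeded every Tg array and the other 4 WT arrays lay below every Tg array. With all 10 arrays the difference was 0.11 (-0.05 to 0.26, exact permutation p = 0.206), and the WT mean was 7.62 ± 0.16 (SD, n = 5) against 7.72 ± 0.059 (SD, n = 5) in Tg. Without WT replicate 2 the difference was 0.17 (0.07 to 0.27) and the exact permutation p was 0.00794, the smallest that 5 against 4 arrays allow. Such a separation, all Tg arrays above all WT arrays, occurred for 1.86% of probe sets once that array was left out. Its limma adjusted p was 0.407 there, with 11 of 28944 probe sets called (0.038%) and 3189 at an unadjusted p under 0.05. With all 10 arrays the groups of no member were free of overlap, against 0.46% of probe sets.

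Dcn (decorin) and Lum (lumican) are small leucine-rich proteoglycans that bind collagen fibrils and limit their width, and the genes lie on the same chromosome, 10. Dcn read 10.48, 10.40, 10.58, 10.37 and 10.21 on the Tg arrays. It read 10.30, 10.05, 10.46, 10.35 and 10.43 on the WT arrays. It was lowest on WT replicate 2, the array on which the 3 collagen genes were highest, and next lowest on Tg replicate 5. Its range of 0.53 log2 units was the widest of the 9 genes, and its spread within groups was above that of 80.8% of probe sets. The Tg minus WT difference was 0.09 (-0.10 to 0.28, exact permutation p = 0.389), and it was 0.02 (-0.13 to 0.18) without WT replicate 2.

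Lum read 6.70, 6.53, 6.75, 6.68 and 6.73 in Tg brains. It read 6.72, 6.76, 6.74, 6.85 and 6.67 in WT brains. It was lowest on Tg replicate 2 and highest on WT replicate 4, which are not the extreme arrays of any collagen gene or of Dcn. The groups overlapped, with a difference of -0.07 (-0.18 to 0.05, exact permutation p = 0.246) and of -0.06 without WT replicate 2. Lum was also the dimmest of the 9 probe sets, brighter than 28.0% of those tested.

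**Figure D1:**
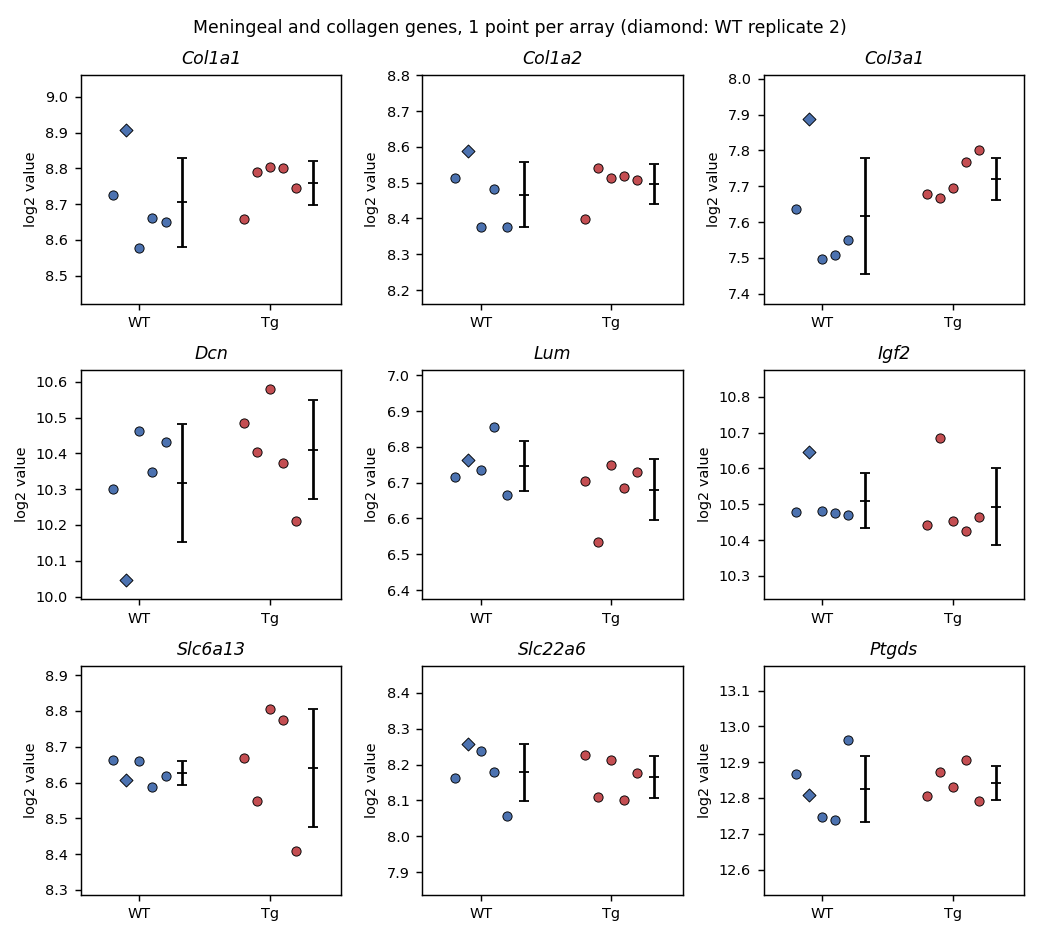
Log2 value (vertical axis) of the 9 genes on each WT (blue) and Tg (red) array, 1 point per array, with the mean and SD of 5 arrays at the right of each group and WT replicate 2 drawn as a diamond; every panel spans the same number of log2 units. The diamond is the highest WT point for the 3 collagen genes and the lowest for Dcn, and Igf2 has 1 high point in each group.

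Igf2 encodes insulin-like growth factor 2, a secreted growth factor that is imprinted in most tissues and is expressed in the adult brain mainly by the meninges and the choroid plexus. On 8 arrays it lay between 10.42 and 10.48, and it stood at 10.68 on Tg replicate 2 and 10.65 on WT replicate 2. Those are the arrays with Gh at 13.14 and 13.46. The Tg mean was 10.49 ± 0.11 (SD, n = 5) and the WT mean 10.51 ± 0.076 (SD, n = 5), a difference of -0.02 (exact permutation p = 0.579). It was 0.02 without WT replicate 2, where the other 4 WT arrays had an SD of 0.0053 (n = 4). Because the 10 arrays fall into 8 and 2 for Igf2, no single correlation across them is given for this gene. The part that the tissue carrying Gh and Prl plays in its high values was not tested.

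Slc6a13, the GABA transporter GAT-2 of the leptomeninges, read 8.67, 8.55, 8.80, 8.77 and 8.41 on the Tg arrays. It read 8.66, 8.61, 8.66, 8.59 and 8.62 on the WT arrays. The WT arrays lay inside the Tg range, and the SD was 0.16 in Tg against 0.034 in WT (n = 5 each), a difference in spread that was not tested. The means differed by 0.01 (-0.14 to 0.17, exact permutation p = 0.897).

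Slc22a6, the organic anion transporter OAT1, read 8.23, 8.11, 8.21, 8.10 and 8.18 on the Tg arrays. It read 8.16, 8.26, 8.24, 8.18 and 8.06 on the WT arrays. WT replicate 2 was highest and WT replicate 5 lowest. The difference was -0.01 (-0.12 to 0.09, exact permutation p = 0.770), and the range over all arrays of 0.20 log2 units was the narrowest of the 9 genes.

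Ptgds, the lipocalin-type prostaglandin D2 synthase made by arachnoid fibroblasts, choroid plexus and oligodendrocytes, was brighter than 99.1% of probe sets. It read 12.81, 12.87, 12.83, 12.91 and 12.79 on the Tg arrays. It read 12.87, 12.81, 12.75, 12.74 and 12.96 on the WT arrays. Its highest array, WT replicate 5, was the lowest for Slc22a6. The Tg minus WT difference was 0.02 (-0.09 to 0.13, exact permutation p = 0.714). For both genes and for Slc6a13 it stayed within 0.02 of 0 without WT replicate 2 (0.0059 for Slc22a6, 0.013 for Ptgds and 0.0081 for Slc6a13).

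With all 10 arrays the limma adjusted p of each of the 9 genes was 0.9998. The Tg mean was higher for 6 genes and lower for 3, with a median difference of 0.02, beside -0.0031 over all probe sets, of which 47.8% had a higher Tg mean. Without WT replicate 2 it was higher for 8 genes, Lum alone being lower, beside 54.2% of all probe sets and a median over them of 0.0083. The interval of the 10-array difference reached no further than 0.28 log2 units in either direction for any of the 9. The p-values set each difference against the spread between these mice, WT replicate 2 included where it was kept. The number of arrays limits the precision.

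**Figure D2:**
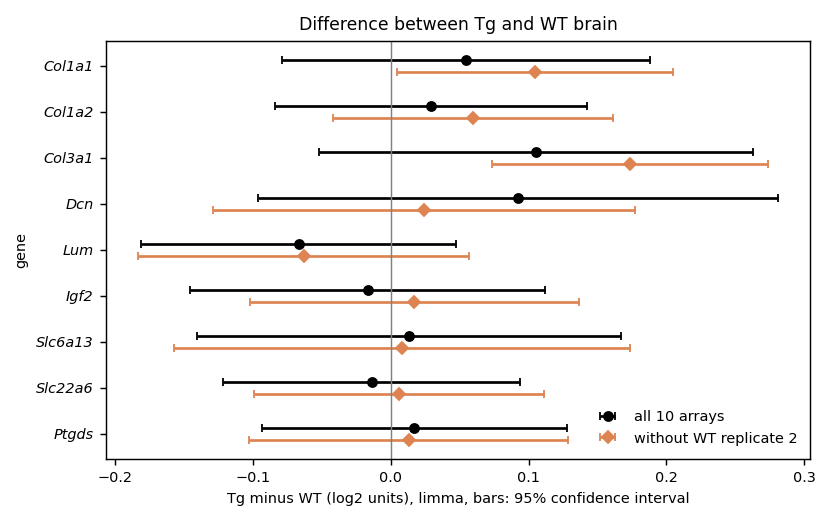
Tg minus WT difference (horizontal axis, log2 units) of the 9 genes from limma with all 10 arrays (black circles) and without WT replicate 2 (orange diamonds), with 95% confidence intervals as bars. Every black bar crosses 0, and the orange bars of Col1a1 and Col3a1 lie above 0.

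Covariation was measured over 36 gene pairs with Pearson's r, Spearman's rho and permutation p-values adjusted over the 36 pairs by Benjamini-Hochberg. The median r was 0.06, with 20 pairs above 0 and 16 below, and it was -0.04 without WT replicate 2. An absolute r of at least 0.7 was reached by 4 of the 36 pairs, while 11.2% of all pairs of genes on the array reached it. The fibrillar collagens made 3 of those 4 pairs.

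Col1a1 and Col1a2, the partners in type I collagen, had r = 0.91 and rho = 0.94 (permutation p = 4e-05 for r and 0.00023 for rho, adjusted 0.00144 and 0.00828). Without the 2 arrays farthest from the median of Col1a1, WT replicates 2 and 3, r was 0.83, and without WT replicate 2 alone it was 0.88 (adjusted permutation p = 0.0328). Inside the groups r was 0.93 over the Tg arrays, 0.91 over the WT arrays and 0.82 over the WT arrays without replicate 2. Tg replicate 1 was the lowest Tg array for both genes, at 8.66 and 8.40. The other Tg arrays lay close together, at 8.74 to 8.81 and 8.51 to 8.54. The Tg value of 0.93 therefore leans on Tg replicate 1, and the Tg value without it was not computed. Over the arrays of both groups without Tg replicate 1, r was 0.91 (adjusted permutation p = 0.00576). Of the 9 genes Col1a1 and Col1a2 are the only pair that passed with and without WT replicate 2.

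Col1a1 and Col3a1 had r = 0.86 and rho = 0.81 (permutation p = 0.00171 and 0.00719, adjusted 0.0308 and 0.129). The relation rested in part on WT replicate 2: without it r was 0.77 and the adjusted permutation p was 0.222. Without WT replicates 2 and 3 r was 0.67. The adjusted permutation p also missed the threshold when Tg replicate 4 or WT replicate 1, 3 or 5 was left out, at 0.0661 to 0.151. Over the WT arrays r was 0.98, and over the Tg arrays 0.17. Col1a2 and Col3a1 had r = 0.72 and rho = 0.70 (permutation p = 0.020 and 0.0317, adjusted 0.180 and 0.190), and r = 0.60 without WT replicate 2.

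Dcn had negative r with all 3 collagens, -0.51 with Col1a1, -0.58 with Col1a2 and -0.59 with Col3a1, none past the threshold after adjustment. These were -0.08, -0.35 and -0.27 without WT replicate 2. The gene that went most closely with Dcn among the members was Slc6a13, at 0.54 over 10 arrays and 0.71 without WT replicate 2 (adjusted permutation p = 0.384 and 0.293). Lum had r = -0.20 with Dcn, its fellow proteoglycan and neighbour on the chromosome, and -0.07 without WT replicate 2.

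Slc22a6 and Ptgds had r = -0.81 and rho = -0.72 (permutation p = 0.00473 and 0.0222, adjusted 0.0568 and 0.170). The adjusted p missed the threshold. The sign did not rest on WT replicate 2 or on a group: r was -0.85 without that array, -0.84 over the Tg arrays, -0.80 over the WT arrays and -0.74 without WT replicates 2 and 5, the farthest from the median of Slc22a6. Lum stood with Slc22a6 (r = 0.55) and against Ptgds (r = -0.63), with adjusted permutation p of 0.384 and 0.377, and r of 0.52 and -0.62 without WT replicate 2.

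Each gene was also set against the mean of the other 8. Col1a1 was closest to it, with r = 0.67 over 10 arrays and 0.63 without WT replicate 2, followed by Col1a2 at 0.50 and Col3a1 at 0.29. Slc6a13 stood at 0.24, Slc22a6 at 0.04 and Ptgds at -0.07. Lum was at -0.30 and Dcn at -0.47, the latter changing to 0.14 without WT replicate 2. Without WT replicate 2, Col1a2 was at 0.37, Slc6a13 at 0.36 and Col3a1 at 0.17. This order also depended on the array-wide level: after each array was centred on its median, Slc6a13 was at 0.59, Col1a1 at 0.03, Col1a2 at -0.0052 and Col3a1 at -0.38.

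**Figure D3:**
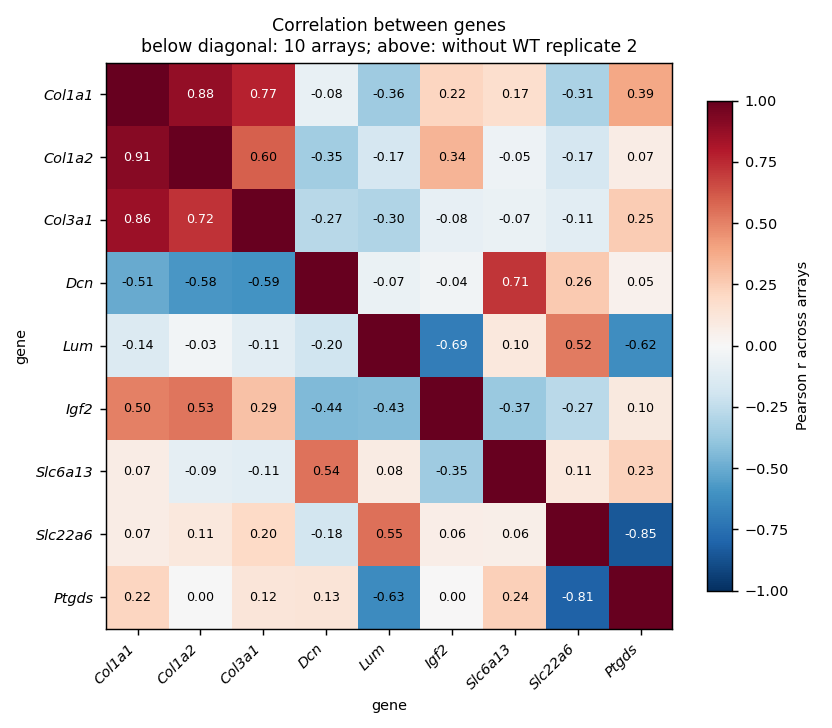
Pearson r between each pair of the 9 genes (both axes list the genes, color gives r from -1 in blue to 1 in red), over all 10 arrays below the diagonal and without WT replicate 2 above it. The red block at the upper left is the 3 fibrillar collagens, the dark blue cell at the lower right is Slc22a6 against Ptgds, and the row of Dcn is blue under the collagens and paler without WT replicate 2.

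The collagen genes also followed the array-wide level, the median over all 28944 probe sets. That median was 7.96 to 7.99 on the Tg arrays, 8.05 on WT replicate 2 and 7.95 to 7.98 on the other 4 WT arrays. Over 10 arrays, in 9 relations computed after the values had been seen, Col1a1 had r = 0.87 and rho = 0.76 with it (permutation p = 0.00047 and 0.0149, adjusted 0.00211 and 0.0447). Col1a2 had r = 0.77 and rho = 0.79 (adjusted permutation p = 0.00717 and 0.0383), and Col3a1 had r = 0.88 and rho = 0.85 (adjusted permutation p = 7.2e-04 and 0.0262). Without WT replicate 2 the 3 values of r were 0.83, 0.76 and 0.89, and without WT replicates 2 and 4 they were 0.84, 0.91 and 0.86. The share of all genes that follow the array median this closely was not counted, so the relation is not shown to be particular to the collagens.

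Dcn ran the other way, with r = -0.79 and rho = -0.56 (adjusted permutation p = 0.0272 and 0.215). For Dcn the relation rested in part on WT replicate 2: r was -0.44 without it, and -0.61 without WT replicates 2 and 4. Lum, Slc6a13, Slc22a6 and Ptgds had r between -0.18 and 0.28, with adjusted permutation p from 0.674 to 0.906. When a line on the array median was taken off each gene, Col1a1 and Col1a2 kept r = 0.76 (adjusted permutation p = 0.382), Col1a1 and Col3a1 had 0.40, Col1a2 and Col3a1 had 0.12, and Slc22a6 and Ptgds had -0.86 (adjusted permutation p = 0.104).

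The Tg difference of Col3a1 was 0.10 (0.03 to 0.17, limma adjusted p = 0.870) with the array median as a covariate. It was 0.09 (-0.01 to 0.20, limma adjusted p = 0.9997) when WT replicate 2 was left out as well. That of Col1a1 in the latter setting was 0.04. The Tg arrays had a mean array median of 7.98 and the 4 WT arrays without replicate 2 one of 7.96.

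**Figure D4:**
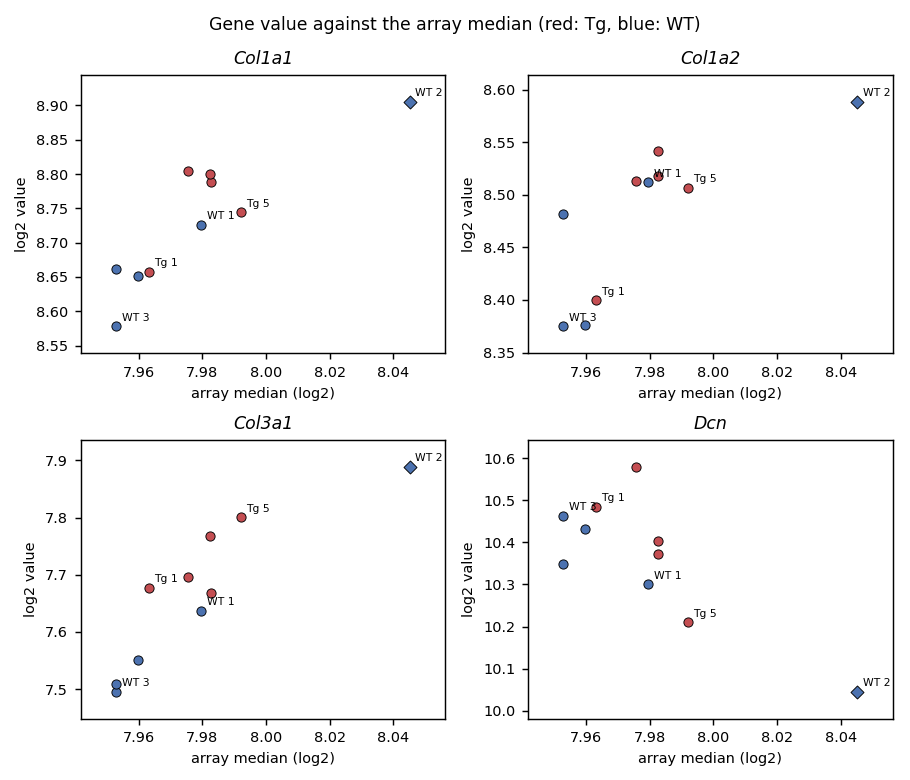
Log2 value of Col1a1, Col1a2, Col3a1 and Dcn (vertical axes) against the median over all probe sets of the same array (horizontal axes, log2), 1 point per array, red for Tg and blue for WT, with some arrays named and WT replicate 2 as a diamond. The 3 collagen genes climb with the array median, and Dcn falls, with WT replicate 2 at the far right of each panel.

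Other markers of meningeal fibroblasts, 61 measured genes besides the 9, held no gene called in either direction with all 10 arrays or without WT replicate 2. The Tg mean was higher for 39 and lower for 22, with a median difference of 0.03, and higher for 36 with a median of 0.02 without WT replicate 2. Over all probe sets the share with a higher Tg mean was 47.8% with all 10 arrays and 54.2% without WT replicate 2. Their lowest limma p belonged to Nid1, a basement membrane linker protein, with a difference of 0.10 (-0.0071 to 0.21, limma adjusted p = 0.9998), and the brightest was Apod, an apolipoprotein of fibroblasts and glia, at 12.72 in Tg and 12.65 in WT. The mean of the 61 ran from 8.33 to 8.43 over the arrays and was 8.38 on WT replicate 2, inside the range of the others.

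Read gene by gene, these 61 fell on different sides. Counts of r of at least 0.7 over 10 arrays are given beside the share of all 19929 other genes that reached it with the same member, and examples were chosen after their values were seen. Col3a1 reached it with 14 of the 61 (23.0%, against 18.7% of all genes), among them Col16a1 at 0.98, Col15a1 at 0.92 and Col6a3 at 0.87, all collagen chains. Col1a1 reached it with 15 (24.6%, against 14.8%), and Col1a2 with 3 (4.92%, against 6.55%). With WT replicate 2 left out the counts were 11 for Col3a1 (18.0%, against 11.2%), 5 for Col1a1 (8.20%, against 6.17%) and 0 for Col1a2 (against 3.05%). The count of Col1a1 thus rested largely on that array. Over 10 arrays 4 of the 61 reached 0.7 in size with a negative sign for Col3a1. They were Slc6a20a (-0.82), Bmp5 (-0.78), Foxc1 (-0.72) and Serping1 (-0.71). Such genes numbered 2 for Col1a1 and 1 for Col1a2. The median r with Col3a1 was 0.21 over the 61, against 0.25 over all genes.

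Dcn reached r of at least 0.7 with 10 of the 61 (16.4%, against 4.27% of all genes), and with 5 (8.20%, against 2.40%) without WT replicate 2. These partners included the proteoglycan Bgn at 0.87, the transcription factor Osr1 at 0.86 and the proteoglycan Ogn at 0.83. The sulfate transporter Slc13a4, Nid1 and Apod each stood at 0.78. Another 4 of the 61 reached 0.7 in size with a negative sign: Col14a1 (-0.85), Lama1 (-0.80), Col8a1 (-0.79) and Col6a3 (-0.79). Without WT replicate 2 these 4 stood at -0.65, -0.75, -0.53 and -0.54. The median r with Dcn was -0.06 over the 61, against -0.26 over all genes. Without WT replicate 2 the values for Bgn and Slc13a4 were 0.79 and 0.78, while those for Ogn and Nid1 were 0.60 and 0.43. Bgn, for example, was at 9.40 on WT replicate 2 and 9.45 on Tg replicate 5, its lowest arrays and those of Dcn, and at 9.53 to 9.72 on the others. Ogn was at 7.94 on WT replicate 2 and at 8.22 to 8.62 elsewhere, while Col6a3, with r = -0.79 to Dcn, was at 7.87 there and at 7.39 to 7.71 elsewhere.

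Slc6a13 went with Islr (r = 0.83) and with Aldh1a2 (0.78), the retinoic acid synthesis enzyme of the meninges, both at the same r without WT replicate 2. Lum and Slc22a6 had Pdgfra, a receptor of fibroblasts and oligodendrocyte precursors, at 0.77 and 0.80. Slc6a13 reached r of at least 0.7 with 2 of the 61 (3.28%, against 1.06% of all genes) and Slc22a6 with 2 (3.28%, against 1.84%). Lum reached it with 1 (1.64%, against 1.30%) and Ptgds with 0 (against 0.65%). Without WT replicate 2 Slc6a13 had 3 (4.92%, against 2.15%) and Slc22a6 had 4 (6.56%, against 2.96%). Lum then had 2 (3.28%, against 6.87%) and Ptgds 1 (1.64%, against 3.06%), both below the share of all genes.

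**Figure D5:**
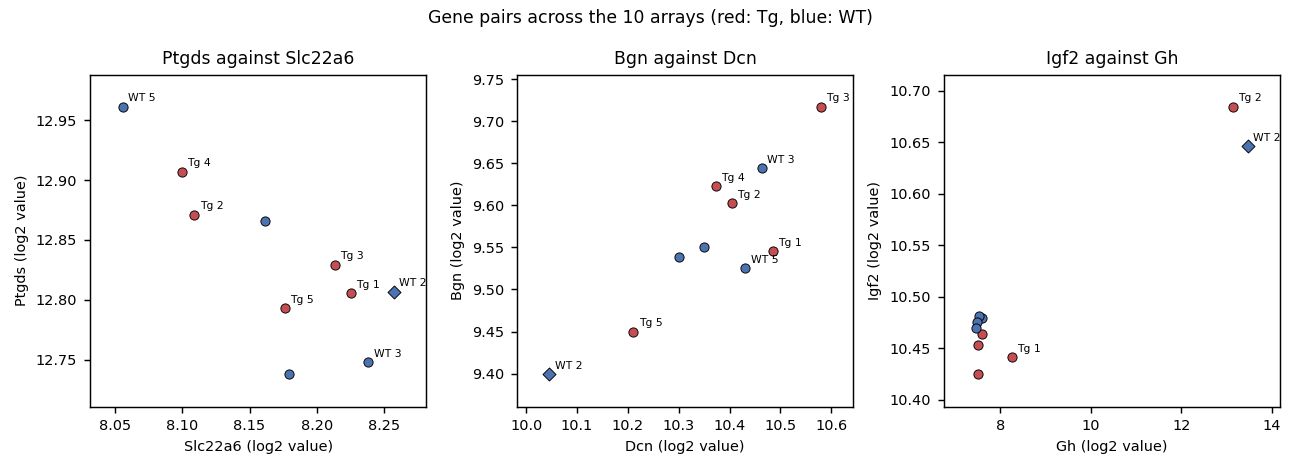
Log2 values of Ptgds against Slc22a6, Bgn against Dcn and Igf2 against Gh, 1 point per array, red for Tg and blue for WT, with some arrays named and WT replicate 2 as a diamond. Ptgds falls as Slc22a6 rises (r = -0.81), Bgn rises with Dcn (r = 0.87), and Igf2 is high only on Tg replicate 2 and WT replicate 2, which have Gh above 13.1.

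The families of the members held no called gene either. Of 31 collagen-processing genes, which fold, crosslink or degrade collagen, 17 had a higher and 14 a lower Tg mean, and 19 a higher one without WT replicate 2. The lowest p belonged to Ctsk, a collagen-degrading protease, with -0.19 (-0.40 to 0.02), and Sparc, a collagen-binding matrix protein, was brightest at 12.70 in Tg and 12.67 in WT. Of 13 further small leucine-rich proteoglycans 7 were higher and 6 lower (7 higher without WT replicate 2), with Epyc at -0.12 (-0.26 to 0.03) and Prelp at 0.06 (-0.03 to 0.14). Of 13 insulin-like growth factor genes 8 were higher and 5 lower (9 higher without WT replicate 2), led by Insr, the insulin receptor, at -0.07 (-0.16 to 0.03). Of 6 basement membrane collagens, the type IV chains, 5 were higher and 1 lower, and all 6 were higher without WT replicate 2, with a median difference of 0.09 then and 0.04 with it.

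Lists of other cell types and tissues that a brain sample can hold were read the same way, and none held a called gene with or without WT replicate 2. The genes with the lowest p in these lists were Cldn5, the endothelial tight junction protein, at 0.15 (0.04 to 0.27) among 12 endothelial genes, and Sp7, the osteoblast transcription factor, at 0.18 (0.06 to 0.30) among 10 bone and cartilage genes, each with a limma adjusted p of 0.9998. Several tallies of direction turned on WT replicate 2, and the share of all probe sets with a higher Tg mean also moved, from 47.8% with it to 54.2% without it. Of 17 cerebellar genes 17 had a higher Tg mean with that array and 1 without it, of 14 choroid plexus genes 9 and 4, of 10 astrocyte genes 5 and 2, and of 9 pituitary genes 6 and 9. The count was 6 and 8 of 13 mural genes, 8 and 10 of 12 endothelial genes, 5 and 7 of 10 bone and cartilage genes, and 7 and 9 of 11 skeletal muscle genes. It was the same with and without that array for oligodendrocytes (6 of 13), border macrophages (8 of 10), blood (0 of 4) and neurons (7 of 12).

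The 9 genes were set against the mean of each of the 17 lists, in 153 relations, and 9 passed after adjustment over them. Col3a1 gave 6: basement membrane collagens (r = 0.93), skeletal muscle (0.90), border macrophages (0.90), bone and cartilage (0.90), mural cells (0.85) and cerebellum (-0.70), with adjusted permutation p from 0.0107 to 0.0413. Col1a1 gave 2, with skeletal muscle (0.94) and with bone and cartilage (0.87). Dcn gave 1, with astrocytes (0.89). These 9 values of r were between 0.78 and 0.90 in size, with the same signs, without WT replicate 2. By Spearman's rho no relation passed, the lowest adjusted permutation p being 0.0696.

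The muscle, bone and macrophage genes were dim, with median brightness percentiles of 30.0, 33.1 and 30.3, and their list means moved little, muscle from 6.99 to 7.26 over the arrays with WT replicate 2 highest. The part of the array-wide level in these relations was not tested. No member passed with the choroid plexus list, whose mean was 8.23 on WT replicate 2 and 8.29 to 8.45 elsewhere, or with the mean of the 61 other meningeal markers.

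The genes most like the mean of the 9 were sought among 10884 genes brighter than the median probe set, by Pearson r over 10 arrays. The 12 highest were Mvd, an enzyme of cholesterol synthesis (r = 0.93), Entpd3, Kcnd3os, 0610010K14Rik, Kifc3, Vmac, Hes5, a Notch target gene, Selenoh, Sntg2, St3gal1, Retsat and 5730522E02Rik (r = 0.87). The 5 lowest were Zkscan3 (-0.95), Far1 (-0.95), Zfp536, Nipbl and Dock4 (-0.92). None of these 17 genes is in any list of meningeal or other cell type markers used here. The share of list genes among the 10884 was not counted and the search gave no p, so nothing is drawn from this absence. The mean itself moved little, its centred value running from -0.04 on WT replicate 3 to 0.06 on Tg replicate 3.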

How the data were processed

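Total RNA from 10 whole brains was labelled with biotin, per the labels' protocols, and each mouse had its own Affymetrix array. The deposited values are on a log2 scale, as their range shows. The submitters' processing notes name Affymetrix Expression Console 1.1.2; how the authors corrected background and normalized, and on which build, is not given in the sources used here. No further normalization was applied. Differences in array signal understate true ratios, most of all in dim probe sets, and the number of arrays limits the precision. Of 35556 rows, 6612 control rows were left out and 28944 probe sets tested. Of these, 21789 had 1 gene, 1621 several and 5534 none in the annotation table; 21698 symbols matched through Entrez identifiers. Each of the 19938 genes was read from its brightest probe set.

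Tg and WT were compared with limma 3.58.1 in R 4.3.3 (lmFit and eBayes, no covariates), with Benjamini-Hochberg adjustment over all 28944 probe sets and a threshold of 0.05; the step was tested on simulated data. For single genes a two-sided exact permutation test was added. Correlations used 100000 permutations (Python 3.11.15, scipy 1.17.1). Genes were named by rule: the 9 members, Glo1, the gene of lowest p in each list, its brightest gene where a list is compared, and the 12 genes most and 5 least like the members' mean; others are said to be chosen after their values were seen. The members, lists and tests were chosen with earlier results of these data known. Alternatives tried were other normalizations, a brightness filter, variance settings, array weights, the serial number in the labels, a replicate block and leaving out each array; the array median was added after the values had been seen.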

Additional observations from a re-analysis of the deposited data

Results flagged for a closer look

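In 52 groups of 5 values (each of the 9 genes and the list means, in Tg and in WT), the gap between the most extreme array and its nearest neighbor was set against the whole range of the group, and 8 gaps were above Dixon's critical value of 0.71. Chance alone marks about 1 in 20 groups. For Col1a2 the lowest Tg array was replicate 1, at 8.40, with the other 4 Tg arrays at 8.51 to 8.54. For Igf2 the highest Tg array was replicate 2 at 10.68 and the highest WT array was replicate 2 at 10.65. The same 2 arrays were the highest of their groups in the mean of the pituitary list, at 8.98 in Tg and 9.33 in WT. WT replicate 2 was the lowest WT array in the means of the cerebellar list (8.58), the astrocyte list (10.59) and the choroid plexus list (8.23).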

How the results depend on the processing

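No member passed the threshold in limma under any setting run, and the number of probe sets called was 9 to 11 throughout. The differences of Col1a1, Col3a1, Dcn and Lum kept their sign in every setting that gave a value; the filter to the upper 60% of probe sets gave none for Lum. Leaving out 1 array at a time, the difference ran from -0.065 to 0.017 for Igf2, from -0.028 to 0.071 for Slc6a13, from -0.045 to 0.0059 for Slc22a6 and from -0.0044 to 0.052 for Ptgds, so the sign of these 4 depends on single arrays. Array weights gave 0.0051 for Slc22a6. With the array median as a covariate and WT replicate 2 left out, the difference was -0.0064 for Col1a2, 0.045 for Slc22a6 and -0.030 for Ptgds. The number of covarying pairs, 2 over all arrays, was 0 after median centring, 0 after taking off a line on the array median, 1 on deviations from the group means, 1 by Spearman's rho and 1 to 3 with 1 array left out; the cause was not tested. Arrays with the same replicate number did not pair throughout: the correlation of their deviations from the group means was 0.0066, 0.33, 0.45, -0.47 and 0.10. Tg replicates 2 and 3 were each closest to the WT array of their own number, and Tg replicates 1, 4 and 5 were not. With a replicate block 11 probe sets, 0 members and 0 list genes were called, and 0 pairs covaried after group and block were taken off. Signal over background was not analysed here.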
